A study of Caenorhabditis elegans with 4 samples.

Results

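UNC-30 is a homeodomain transcription factor of the PITX family. In Caenorhabditis elegans it specifies the GABA motor neurons of the D type, in which it activates the genes for GABA synthesis and packaging. UNC-55, an orphan nuclear receptor related to COUP-TF, works in the VD class of D neurons. Its known role there is to keep the VD synaptic pattern distinct from that of the DD class. A peak of one factor with no peak of the other therefore marks a place where the available lists part. The regions described here are the autosomal peaks of UNC-30 that overlap no UNC-55 peak by even 1 bp, called UNC-30 alone or members below. They were chosen by the measured positions of the peaks in both lists, with X left out. There were 972 of them among 2166 autosomal UNC-30 peaks and 5484 peaks in both lists together.

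The peaks come from chromatin immunoprecipitation and sequencing (ChIP-seq) of whole L2 larvae. All samples carry the strain name GSH100 in the labels, so which factor a list reports is known from the sample titles and file headers alone, and the name UNC-30 alone rests on them. The animals were kept at 22 or 25 °C on OP50 bacteria. The UNC-30 ChIP, taken with beads that bind GFP, is set against the UNC-55 ChIP, taken with the same beads. The 2 input samples, 1 per factor and taken without antibody, were not analysed here. With 1 library per factor there are no replicates to check against, and no p-values were computed. The lists give the chromosome, start and end of each peak and no height, read count or score, so read depth is unknown. Because whole animals were used, binding in few cells cannot be told apart from weak binding in many.

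Being alone is the rule itself, so it is given as a description. Membership turned on small distances in a minority of cases. Of the members, 7 touched a UNC-55 peak edge to edge without sharing a base, 10 lay under 100 bp from one and 64 under 500 bp. Just on the other side, 37 of the 1194 shared autosomal UNC-30 peaks had an overlap of 50 bp, the smallest that the 50 bp grid of the lists allows, and 139 had 100 bp. On chromosome II, the members at 8931401 to 8931600 and at 8931701 to 8931800 both touched a UNC-55 peak, which fills the 100 bp between them. Other members that touched a UNC-55 peak lay at I 10756451 to 10756650, IV 5836201 to 5836700 and IV 6988651 to 6988750. The remaining ones were at V 9128551 to 9128650 and V 11446501 to 11446850. Positions count from 1 and follow the deposited lists, for which the sources used here name no genome build.

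Members were found on every autosome. Their share of the UNC-30 peaks was 43.3% on I (95% exact binomial interval 38.7 to 48.0%), 48.3% on II (43.4 to 53.1%), 46% on III (41.3 to 50.7%), 41.0% on IV (36.2 to 45.9%) and 45.8% on V (40.9 to 50.6%). All these intervals overlap, and they cover counting error only, with peaks taken as independent. The share over all autosomes was 44.9% (42.8 to 47%), and that on X was 44.3% (40.6 to 48.0%), so X did not differ beyond counting error in this share.

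The number of members per Mb varied more than their share of the list. Chromosome III held 14.9 members per Mb, II held 13.5, I held 13.1, IV held 9.70 and V held 9.28. Relative to its length, III carried 1.26 times the even number of members (interval 1.11 to 1.43) and II 1.15 times (1.01 to 1.29), while IV carried 0.822 times (0.712 to 0.942) and V 0.786 times (0.689 to 0.891). The value for I, 1.11 (0.975 to 1.26), included 1. Shared UNC-30 peaks had their highest density on III too, at 17.5 per Mb, and their lowest on V, at 11 per Mb. UNC-55 peaks alone ran in another order: II was the densest with 11.7 per Mb, and III, at 8.22 per Mb, lay below I, at 9.78 per Mb. III thus held 205 members and 113 UNC-55 peaks alone, against 207 and 179 on II.

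**Figure D1:**
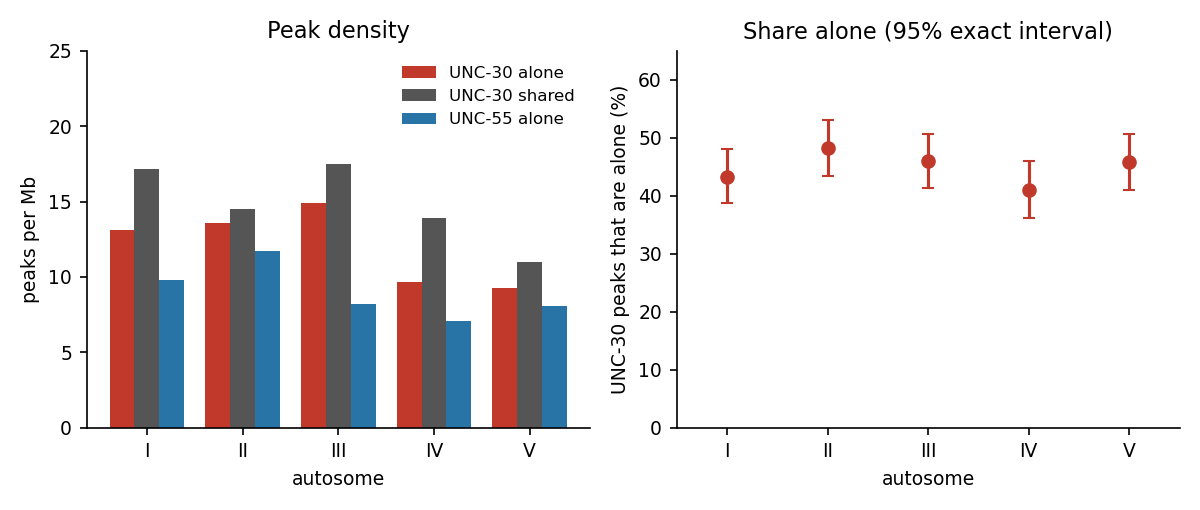
Left, peaks per Mb on each autosome for UNC-30 peaks alone (red), shared UNC-30 peaks (grey) and UNC-55 peaks alone (blue), without error bars. Right, the percentage of UNC-30 peaks that were alone, with exact 95% binomial intervals: the densities of members run from 9.28 per Mb on V to 14.9 per Mb on III, while the intervals of the shares all overlap.

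The autosomes of C. elegans have a gene-dense middle and outer arms that are richer in repeats and in recombination. Pooled over the autosomes, members and shared peaks were both denser in the middle. With each autosome cut into 3 parts of equal length, the central part held 39% of the members (35.9 to 42.1%, 379 of 972), against 44.1% of shared UNC-30 peaks (41.3 to 47%) and 45.3% of autosomal UNC-55 peaks alone (41.6 to 49%). The members' interval overlaps both of the others. The left part held 28.3% of the members and the right part 32.7%. The central part was not the single fullest part on every autosome. Chromosome I held 63 left, 58 central and 76 right, and III held 79 in both the central and the right part. In the central part 41.8% of UNC-30 peaks were alone (38.6 to 45.1%, 379 of 906), and in the outer parts 47.1% were (44.3 to 49.9%, 593 of 1260). These intervals overlap too, and the gap rested largely on chromosome I: without I, the central part held 41.4% of the members (37.9 to 45.0%) and 43.7% of shared UNC-30 peaks (40.5 to 46.9%), and 44.0% of UNC-30 peaks were alone in the central part (40.3 to 47.7%) and 46.3% in the outer parts (43.1 to 49.5%). Of UNC-55 peaks, 38.4% were alone in the central part (35.1 to 41.7%) and 37.2% in the outer parts (34.3 to 40.2%).

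The gap was widest on chromosome I. Its central part held 29.4% of its members (23.2 to 36.3%, 58 of 197), against 45.7% of its shared UNC-30 peaks (39.5 to 52.0%), and these intervals did not overlap. Of the UNC-30 peaks in the centre of I, 33.0% were alone (26.1 to 40.4%), and of those in its outer parts 49.8% were (43.8 to 55.8%). On III and IV the order was the other way, by little more than 1 percentage point: 38.5% of members against 37.3% of shared peaks on III, and 40.2% against 39.1% on IV. On II the central shares were 42.0% of members (35.2 to 49.1%) and 49.5% of shared peaks (42.8 to 56.3%), and on V 44.8% (37.7 to 52.1%) and 49.6% (42.9 to 56.2%).

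The share alone was highest toward the right end of the autosomes. In 10 parts of equal length, the share of UNC-30 peaks that were alone was lowest in part 4, at 38.3% (31.7 to 45.2%), and highest in part 9, at 56.9% (48.4 to 65.2%), followed by part 10, at 55.7% (48.4 to 62.8%). At the left end it was 47.8% in part 1 (39.7 to 55.9%) and 49.4% in part 2 (41.3 to 57.4%). The last 20% of the length, a region chosen after these values were seen, held 190 members and 148 shared UNC-30 peaks, so that 56.2% of its UNC-30 peaks were alone (50.7 to 61.6%), against 42.8% in the rest (40.5 to 45.1%). This end contained 19.5% of all members (17.1 to 22.2%), 12.4% of shared UNC-30 peaks (10.6 to 14.4%) and 13% of autosomal UNC-55 peaks alone (10.6 to 15.7%).

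For this stretch the direction was the same on each autosome, but it depends on where the boundary is set. The splits by autosome and by width use the peaks from which the stretch was chosen, so they describe it and are no support. In the right part of 3 on IV, 37.4% of UNC-30 peaks were alone (28.6 to 46.9%), the lowest of the 3 parts of that chromosome (43.3% left, 41.7% central). The share alone in the last 20% was 64.3% on III (53.1 to 74.5%), against 41.7% in the rest of III (36.6 to 47%), which is the one autosome where the intervals did not overlap. It was 60.6% against 46% on II, 58.5% against 43.9% on V, 50% against 39.9% on IV and 47.2% against 42.4% on I. Without III the pooled shares were 53.5% (47.2 to 59.8%) and 43.0% (40.5 to 45.6%). The difference had the same direction within classes of peak width, and a part played by width was not tested. Among UNC-30 peaks of 300 bp or more, 41.0% were alone in the last 20% (33.8 to 48.5%) and 25.2% in the rest (22.6 to 27.9%), and among those of 100 to 250 bp the shares were 74.2% (66.6 to 80.9%) and 66.3% (62.9 to 69.6%), whose intervals overlap. On X, 44.4% were alone in the last 20% (35.9 to 53.2%) and 44.3% in the rest (40.1 to 48.4%). For the UNC-55 list the autosomal shares alone were 38.8% at this end (32.6 to 45.2%) and 37.6% elsewhere (35.3 to 39.9%).

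**Figure D2:**
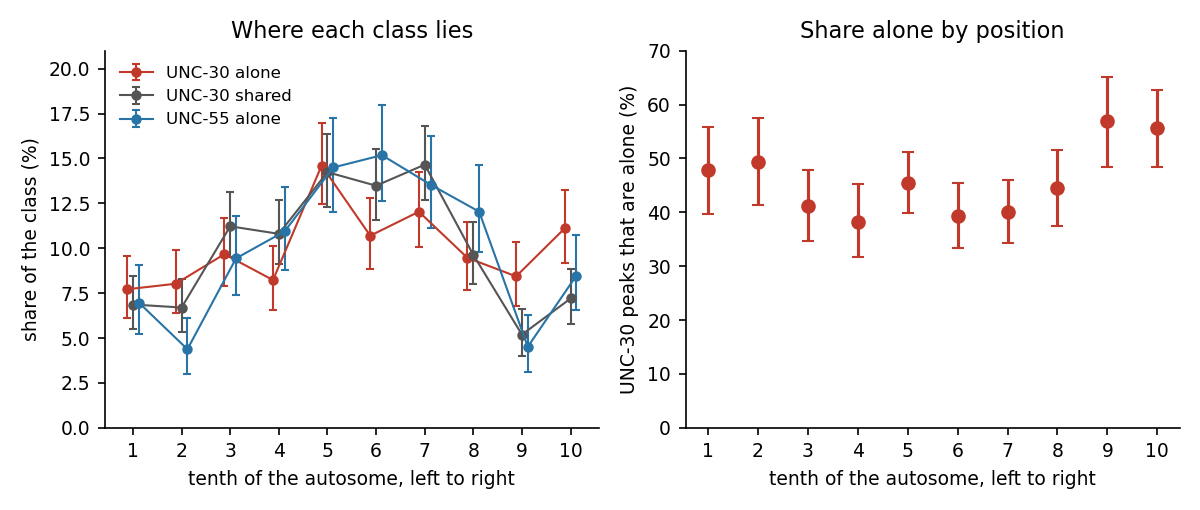
Position along the autosomes in 10 parts of equal length, from left to right, pooled over the 5 autosomes; bars are exact 95% binomial intervals. Left, the percentage of each class (UNC-30 alone red, UNC-30 shared grey, UNC-55 alone blue) in each part; right, the percentage of UNC-30 peaks that were alone, which reaches 56.9% in part 9 and 55.7% in part 10.

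In complete windows of 1 Mb, between 2 and 25 members were found (median 11.5), and no window of the 80 lacked them. The fullest was II 5000001 to 6000000, with 25 members beside 28 shared UNC-30 peaks, followed by III 5000001 to 6000000, with 23 and 22. The emptiest was IV 13000001 to 14000000, where 2 members stood beside 23 shared peaks (8% alone, 0.984 to 26%). Among the 59 windows with at least 20 UNC-30 peaks, the share alone was highest at III 12000001 to 13000000, with 18 members and 5 shared peaks (78.3%, 56.3 to 92.5%). I 11000001 to 12000000 followed with 18 and 7, and III 11000001 to 12000000 with 20 and 9. Members outnumbered shared UNC-30 peaks in 23 windows, were fewer in 50 and equal in 7. The longest unbroken run of members, with no shared UNC-30 peak between them, counted 9 and spanned 518 kb at III 11935451 to 12453450, where the UNC-55 list held 1 peak. Runs were mostly short: 280 of the 520 were a single member.

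Members were narrow. Their median width was 200 bp (quartiles 150 and 300 bp) and their mean 248 bp, while shared autosomal UNC-30 peaks had a median of 400 bp (quartiles 250 and 500 bp) and a mean of 407 bp. Autosomal UNC-55 peaks alone had the same median of 200 bp and a mean of 203 bp. A wider peak has more chance to meet a peak of the other list, so width and the rule are not independent, and no test was made. How much of the width difference comes from this was not tested. Of the members, 331 (34.1%) were 100 or 150 bp wide, 303 (31.2%) were 200 or 250 bp, 256 (26.3%) were 300 to 400 bp, 67 (6.89%) were 450 to 600 bp and 15 (1.54%) were 650 bp or more. The share of autosomal UNC-30 peaks that were alone fell with each width class, in that order 74.9% (70.6 to 78.9%), 61.1% (56.6 to 65.4%), 40.1% (36.3 to 44.0%), 15.1% (11.9 to 18.8%) and 10.2% (5.82 to 16.3%). The median was 250 bp on II and 200 bp on each of the other autosomes, a difference of 1 grid step. Members covered 241 kb in all and shared autosomal UNC-30 peaks 486 kb.

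**Figure D3:**
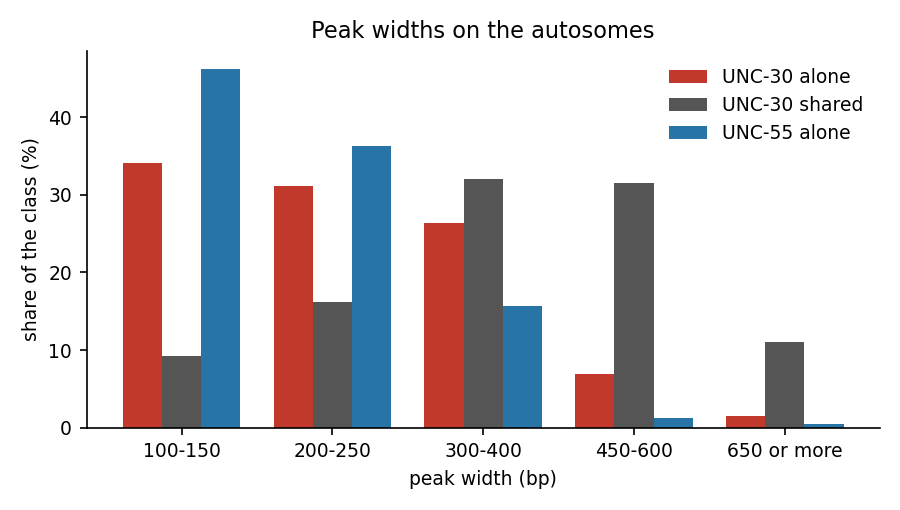
Percentage of each autosomal class in 5 classes of peak width in bp, for UNC-30 alone (red), UNC-30 shared (grey) and UNC-55 alone (blue). Widths of 100 to 150 bp made up 34.1% of the members and 9.30% of the shared UNC-30 peaks; widths of 450 to 600 bp made up 6.89% and 31.5%.

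A few members were as wide as the wider shared peaks. The widest was at I 3391551 to 3393000, 1450 bp long, with its nearest UNC-55 peak 56900 bp away and its nearest shared site 233950 bp away. The next, at III 1744651 to 1745650, was 1000 bp long and lay 39800 bp from a shared site. At III 12943651 to 12944500, a member of 850 bp lay 950 bp from a shared site and 250 bp from another UNC-30 peak. Members of 750 bp were found at I 11659451 to 11660200, II 6831251 to 6832000, II 10549651 to 10550400 and II 11351151 to 11351900. Those of 700 bp among the 10 widest were at I 12175701 to 12176400, II 6827851 to 6828550 and II 15260451 to 15261150. Of these 10, 4 had a shared site under 2000 bp away, and 5 of the 10 lay on II. Another member of 700 bp, at III 11474451 to 11475150, lay 138100 bp from a shared site. It tied with the last of the 10 and was left out only by chromosome order.

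Members lay at all distances from the sites where both factors had a peak. A shared site here is the joined extent of the overlapping peaks, and distances are the bases between edges. The median distance of a member to the nearest of the 1192 autosomal shared sites was 14125 bp (quartiles 2350 and 43738 bp). Of the members, 5.04% had one under 500 bp away (3.75 to 6.61%), 22.7% under 2000 bp (20.1 to 25.5%, 221 of 972) and 45.6% under 10000 bp (42.4 to 48.8%). UNC-55 peaks alone came near a shared site less often, at 1.92% under 500 bp (1.05 to 3.19%) and 16.1% under 2000 bp (13.5 to 19.0%). Neither pair of intervals overlapped, but at 2000 bp the intervals nearly met. Peaks close together can count the same shared site, so these intervals are too narrow. At 10000 bp the UNC-55 value was 40.0% (36.4 to 43.6%), which overlaps that of the members. Shared sites had another shared site under 2000 bp away in 23.6% of cases (21.2 to 26.1%), about as often as members did, but under 10000 bp in 52.8% (49.9 to 55.6%), more often than members.

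**Figure D4:**
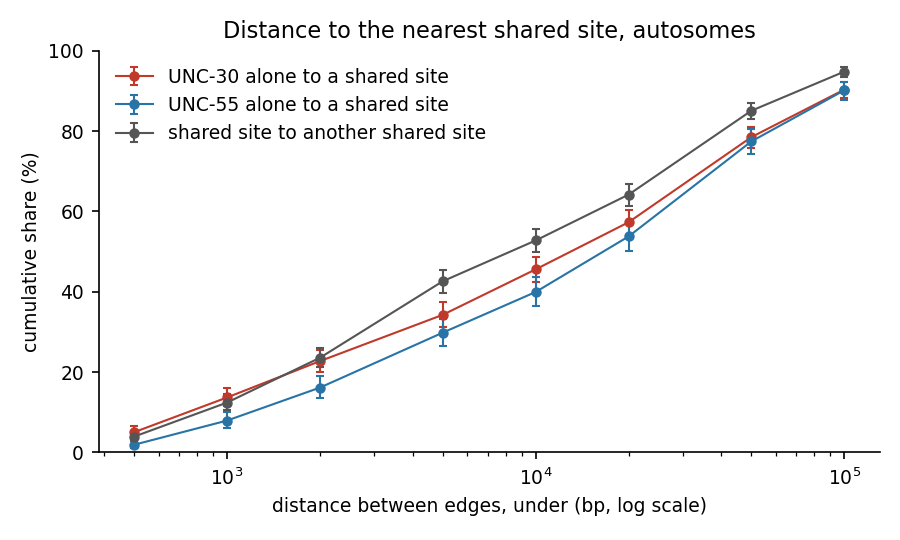
Cumulative percentage of autosomal UNC-30 peaks alone (red), UNC-55 peaks alone (blue) and shared sites (grey) with a shared site, or another one, under a given distance between edges (bp, log scale); bars are exact 95% intervals. Under 2000 bp the values were 22.7% for UNC-30 alone, 16.1% for UNC-55 alone and 23.6% for shared sites; under 10000 bp they were 45.6%, 40.0% and 52.8%.

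The width of members varied little with their distance to a shared site. The mean was 269 bp under 500 bp away and 285 bp at 500 to 1000 bp, lay between 236 and 257 bp in the 5 distance classes up to 50000 bp without a steady order, and was 225 bp beyond. The medians ran from 200 to 250 bp, a span of 1 grid step. A shared site lay near 27.2% of the members of 300 bp or more, at under 2000 bp (22.5 to 32.3%), against 19.0% of those of 100 or 150 bp (14.9 to 23.7%), and these intervals overlap. Between autosomes the share near a shared site ran from 19.5% on IV (13.8 to 26.3%) to 25.6% on II (19.8 to 32.1%).

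Within their own list, 35.2% of the members had another UNC-30 peak under 2000 bp away (32.2 to 38.3%, 342 of 972), against 37.3% of shared autosomal UNC-30 peaks (34.5 to 40.1%). By autosome the members' value was highest on III, at 42.9% (36.1 to 50%), and lowest on IV, at 26.6% (20.1 to 34.0%), without overlap of the intervals. Members close to each other count for each other, so these intervals are too narrow. III also held more UNC-30 peaks in less length, 446 over 13.8 Mb against 412 over 17.4 Mb on IV. The nearest UNC-30 neighbour was a shared peak for 53.9% of the members (50.7 to 57.1%), close to the 55.1% that shared peaks make up in the autosomal list. The nearest UNC-55 peak was a shared one for 64.7% (61.6 to 67.7%), against 62.3% among all autosomal UNC-55 peaks (60.1 to 64.4%). Members therefore had neighbours of both kinds in about the proportion in which the lists hold them. A UNC-55 peak alone lay under 2000 bp from 7.82% of the members (6.21 to 9.69%).

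When all peaks of both lists under 2000 bp apart were joined, 579 members (59.6%, 56.4 to 62.7%) remained single, with no other peak of either factor in reach. The matching share is not given here for the other classes of peaks, so this count does not set members apart from them. Another 100 members formed 48 regions of members only. Regions with shared sites but no UNC-55 peak alone held 197 members, those with UNC-55 peaks alone but no shared site held 59, and those with both held 37. The region with most members, V 15070851 to 15078150, held 4 of them and 2 shared UNC-30 peaks. The region II 6823101 to 6832250 held 3 members, among them the 700 and 750 bp peaks named above, with 4 shared UNC-30 peaks and 2 UNC-55 peaks alone.

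Joining members alone in the same way gave 74 pairs and 7 groups of 3, and the other 803 members stayed single. Thus 17.4% of the members had another member under 2000 bp away. Among autosomal shared UNC-30 peaks, 23.7% had another shared one that near, and among autosomal UNC-55 peaks alone 11.6% had another of their class. The group at III 5685101 to 5688450 had its nearest UNC-55 peak 37800 bp away. On V there were 3 groups far from UNC-55: one at 6244401 to 6247600 (nearest UNC-55 peak 11150 bp away), one at 9191351 to 9193250 (25000 bp) and one at 20706051 to 20708650 (11650 bp). The group at IV 4020501 to 4024250 had a UNC-55 peak 250 bp away. The groups at I 14186951 to 14189300 and at II 10547601 to 10552250 each enclosed 1 UNC-55 peak, which was part of a shared site on II and alone on I. Of the members, 23 lay under 200 bp from another UNC-30 peak.

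The 5 members farthest from any UNC-55 peak were 100 to 250 bp wide. The farthest, at V 2478501 to 2478600, was 198850 bp away, and its neighbour at V 2497251 to 2497450 was 180000 bp away. At III 12060001 to 12060250 and III 12058351 to 12058500, members 1500 bp apart were 189850 and 188200 bp from the nearest UNC-55 peak. The remaining one was at IV 16234151 to 16234400, 185050 bp away. Toward the chromosome ends, the first member on I lay at 3651 to 4000 and the last member on II at 15279051 to 15279200, which is also the last peak of either list on that chromosome.

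Members were found beside transfer RNA (tRNA) genes more often than shared peaks were. These short genes are transcribed by RNA polymerase III from promoter elements inside the gene. For this comparison peak centres were set against gene midpoints of the RefSeq table of assembly WBcel235, which may not be the build of the lists, and no coordinate was converted. Of the members, 28 (2.88%, 1.92 to 4.14%) had their centre within 300 bp of a tRNA gene's midpoint, against 1 of 1194 shared autosomal UNC-30 peaks (0.0838%, 0.00212 to 0.466%) and 4 of 731 autosomal UNC-55 peaks alone (0.547%, 0.149 to 1.40%). The interval of the members overlapped neither of the others. Among peaks of 100 or 150 bp the counts were 14 of 331 members and 0 of 111 shared peaks (up to 3.27%), and among those of 200 or 250 bp they were 7 of 303 (2.31%, 0.934 to 4.70%) and 0 of 193 (up to 1.89%). The intervals overlap in both of these classes. Among peaks of 300 bp or more they were 7 of 338 (2.07%, 0.837 to 4.22%) and 1 of 890 (0.112%, 0.00284 to 0.624%), without overlap. UNC-30 peaks on X showed the same order, with 17 of 314 alone (5.41%, 3.19 to 8.53%) and 3 of 395 shared (0.759%, 0.157 to 2.20%). Autosomal UNC-55 peaks alone had 3 of 338 at 100 or 150 bp and 1 of 265 at 200 or 250 bp. At 300 bp or more they had 0 of 128. In each of these width classes their interval overlaps that of the members.

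For other small RNA genes the intervals of members and shared peaks overlapped at 300 bp. Within 300 bp of small nucleolar RNA genes lay 11 members (1.13%, 0.566 to 2.02%) and 11 shared UNC-30 peaks (0.921%, 0.461 to 1.64%), but within 200 bp lay the same number of members, 11, and 3 shared peaks (0.251%, 0.0518 to 0.733%), whose intervals also overlap. Within 300 bp of small nuclear RNA genes lay 4 members (0.412%) and 5 shared peaks (0.419%), and of microRNA genes 5 members (0.514%) and 6 shared peaks (0.503%). For tRNA pseudogenes the order was that of the tRNA genes, with counts of 4 members (0.412%, 0.112 to 1.05%) and 1 shared peak (0.0838%, 0.00212 to 0.466%).

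The 28 members lay beside 28 different tRNA genes, 8.33% (5.61 to 11.8%) of the 336 on the autosomes in that table. Chromosome II had 9, III had 7, I and IV had 5 each and V had 2, while the table lists 57, 64, 66, 71 and 78 tRNA genes on II, III, I, IV and V in that order. The share of genes with a member ran from 2.56% on V (0.312 to 8.96%) to 15.8% on II (7.48 to 27.9%), and all the intervals overlap. Members at II 3519101 to 3519350 and II 3521201 to 3521600 stood beside W09G10.t2 and W09G10.t1, and members at III 8106501 to 8106650 and III 8109451 to 8109550 beside C14B9.t1 and C14B9.t2. The widest, at V 19125601 to 19126100, was 500 bp long and lay beside Y39B6A.t9. Others were beside K07A1.t1 on I, F52C9.t1 on III and F41A4.t1 on IV, each 100 bp wide.

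In a comparison that was not planned beforehand, members beside tRNA genes were more isolated than the rest. None of the 28 had a UNC-55 peak under 2000 bp away (0 to 12.3%), against 277 of the other 944 members (29.3%, 26.5 to 32.4%), and the closest UNC-55 peak to any of them was 2100 bp away. Another UNC-30 peak lay under 2000 bp away for 2 of the 28 (7.14%, 0.877 to 23.5%), which were the W09G10 pair, against 340 of the others (36.0%, 32.9 to 39.2%). Their median distance to a UNC-30 neighbour was 13075 bp, against 4800 bp for the others. In width they were slightly smaller, with a mean of 202 bp against 249 bp, and 14 of the 28 were 100 or 150 bp wide.

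In the unconverted WBcel235 coordinates, which may not be those of the lists, the 28 peaks were not centred on the genes. Their centres lay at the lower coordinate in 26 cases, with a median offset of -84.8 bp and a range of -230 to 130 bp. By chromosome the median offset was -71.5 bp on I, -110 bp on II, -114 bp on III, -71.0 bp on IV and -186 bp on V, where 2 peaks entered. The table gives no strand, so a shift relative to transcription could not be measured. Over the whole lists, X included, a shift to lower coordinates was also seen for small nuclear RNA genes. There all 9 UNC-30 peaks and all 5 UNC-55 peaks within 300 bp lay lower, with median offsets of -177 and -152 bp. Of these 5 UNC-55 peaks, 4 were shared ones, which overlap UNC-30 peaks, so the counts of the lists are not separate observations. For small nucleolar RNA genes 14 of 23 UNC-30 peaks lay lower, with a median offset of -18.5 bp, as did 7 of 12 UNC-55 peaks. Of these 12, 9 were autosomal shared peaks. For microRNA genes 4 of 14 UNC-30 peaks lay lower. Of the members alone, 4 of 4 lay lower for small nuclear, 9 of 11 for small nucleolar and 1 of 5 for microRNA genes. The offsets therefore do not settle the build, and a displacement from the genes cannot be told apart from a difference of coordinates. Members were set against no protein-coding gene, promoter or sequence motif. Whether the peaks beside tRNA genes depend on UNC-30 was not tested, since no peaks of an input or of an untagged strain were used.

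**Figure D5:**
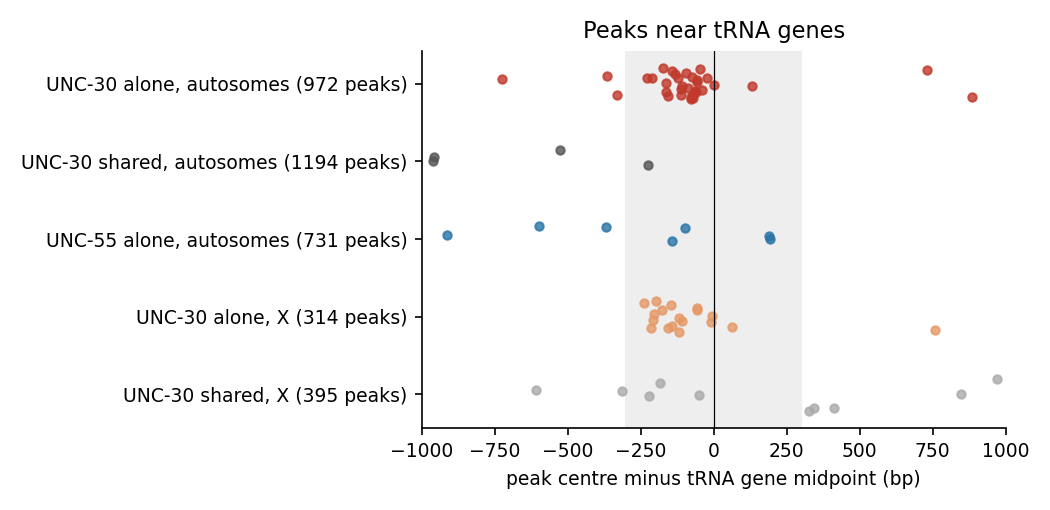
Each point is a peak whose centre lies within 1000 bp of a tRNA gene midpoint of assembly WBcel235; the x axis gives centre minus midpoint in bp, rows are peak classes with their number of peaks, and vertical scatter within a row is for legibility. The shaded band marks 300 bp on either side: it holds 28 of 972 UNC-30 peaks alone on the autosomes, most left of 0, and 1 of 1194 shared ones.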

How the data were processed

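ChIP-seq peaks of UNC-30 and UNC-55 from whole L2 larvae were analysed, 1 library per factor. The authors deposited, per the file headers, 1 list per factor with chromosome, start and end in bp and no score, while the sources used here name no aligner, caller, threshold or build. Every start is a multiple of 50 counted from 0, so positions were converted to count from 1. The members and lists were chosen with earlier results of these data known. Peaks were called shared at an overlap of 1 bp or more. Each chromosome was taken to end at its last peak of the 2 lists. Exact Clopper-Pearson 95% intervals of shares cover counting error only. No test was run, because there is 1 library per factor. Named regions were the 10 widest members, groups of 3 or more, window extremes and end members. The 5 farthest from and the 5 closest to UNC-55 were also named, and a selection of all these is printed. Ties were cut in chromosome order, but all 7 members that touched a UNC-55 peak are printed. Runs, joined regions and the last 20% of the autosomes were chosen after the values were seen. Genes of the RefSeq table (WBcel235) were used for small RNA genes only, and the planned assignment of protein-coding genes was not run because the build was not settled. The other small RNA gene classes, and the comparison of members beside tRNA genes with the rest, were not planned. The overlap and distance counts were tested on simulated data. The tools were scipy 1.17.1, pandas 2.3.3, numpy 2.4.6 and matplotlib 3.10.9 under Python 3.11.15.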

Additional observations from a re-analysis of the deposited data

How the results depend on the processing

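Under 46 alternatives, 36 values stayed inside the reported value's interval or, for counts, within 1.5 times of it. These 36 included every value with 50% overlap required or centres within 200 bp, the number and share alone after joining peaks under 500 bp apart, the central share of members without each autosome in turn, and the tRNA share under its other distances and widths. Keeping UNC-30 peaks of at least 300 bp left 338 members, 27.5% of such peaks. Counting a gap under 500 bp as shared gave 41.9% alone, 31.9% with a UNC-30 peak and 20.04% with a shared site under 2000 bp away. Distances under 1000 and under 5000 bp gave 20.6 and 49.6% for a UNC-30 peak, and 13.7 and 34.3% for a shared site. The stretch between 25 and 75% of the autosomes' length, which is longer than the central part, held 55.9% of the members. No paired analysis was possible because there is a single library per factor, and no replicate could be dropped. Without read counts or input values, the missing UNC-55 peak at a member cannot be read as absent binding, and peaks just under the caller's threshold cannot be seen. The alternatives without members beside tRNA genes and with members of at least 200 bp only were chosen after seeing the data.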
